A study of Mus musculus with 18 samples.

Results

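The keratin genes of the mouse were followed through microarrays of tissue labelled RPE/choroid, the retinal pigment epithelium and the vascular layer behind it, after a single injection into the vitreous of the eye. A gene was a member if its symbol was Krt followed by a number and at most 1 letter, and if at least 1 probe set of the array was annotated to that symbol alone. The probe sets of a gene were averaged, which gave 48 keratin genes from 61 probe sets, out of 18194 genes and 45101 probe sets in all. One further probe set, shared by Krt14 and Krt17, was left out. The rule takes in every numbered keratin, so besides the keratins of cornea and conjunctiva it holds those of hair, of cornified skin and of simple epithelia.

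All animals were male C57BL6/J mice, 2 months old by the labels, and every injection had a volume of 1 µL and passed through the conjunctiva. The 6 groups were balanced salt solution (BSS, the vehicle), dexamethasone (DEX, 10 µg) and triamcinolone acetonide (TAA, 25 µg), both steroids dissolved in BSS, each collected at day 7 or at day 30, with 3 arrays per group and 18 arrays in all. Because the doses differ, steroid and dose cannot be told apart. Per the methods, the front of the eye was taken off by a cut on the far side of the limbus, the rim where cornea meets conjunctiva and sclera, and the retina and the outer muscle and connective tissue were cleared away. The tissue was then passed through a needle to free the pigmented cells, and the sclera was taken out as a sheet, to which the methods state that most of the choroid probably held. Values were log2 expression after robust multi-array averaging, with each probe set set to a median of 0 over the 18 arrays, so a value gives the distance of an array from that gene's middle array and no level. The RPE/choroid label could for that reason not be checked by the presence of markers. The mean of 12 RPE genes such as Rpe65 ranged over the arrays from -0.26 to 0.23, that of 8 rod photoreceptor genes from -1.65 to 3.70, and that of 10 lens genes from -1.56 to 3.12. In bulk tissue, fewer cells of a type and less RNA per cell cannot be told apart.

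Keratins are the intermediate filament proteins of epithelia. A filament forms only from a type I keratin paired with a type II keratin, and each kind of epithelium uses its own pairs. Krt12 is the type I keratin of the corneal epithelium, Krt4 and Krt13 are a pair of moist stratified epithelia such as the conjunctiva, Krt5 and Krt14 are the pair of the basal layer of all stratified epithelia, and Krt8 and Krt18 are the pair of single-layered epithelia, to which the RPE belongs.

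The promoters of Krt12, Krt5, Krt13 and Krt8 are shown because these genes stand for the patterns described below: Krt12 apart on a few arrays, Krt5 and Krt13 moving together, and Krt8 with a range under 1 log2 unit. Each sequence runs 5′ to 3′ over 250 bases before and 50 bases after the gene start, from RefSeq on build GRCm38.p6, all on the minus strand. Capitals mark 3 motifs searched on both strands, and matches may overlap. TATAAA is a form of the TATA box and CCACCC a motif read by Krüppel-like factors. TGANTCA is a loose form of the AP-1 motif, in which N is any base.
Krt12, chr11:99422210-99422509: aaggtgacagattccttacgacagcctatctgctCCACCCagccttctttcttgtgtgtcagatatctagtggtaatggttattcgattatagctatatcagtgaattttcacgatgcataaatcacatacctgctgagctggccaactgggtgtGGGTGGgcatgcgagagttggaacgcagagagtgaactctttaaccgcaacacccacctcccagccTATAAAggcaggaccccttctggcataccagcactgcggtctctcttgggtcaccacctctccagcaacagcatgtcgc
Krt5, chr15:101712856-101713155: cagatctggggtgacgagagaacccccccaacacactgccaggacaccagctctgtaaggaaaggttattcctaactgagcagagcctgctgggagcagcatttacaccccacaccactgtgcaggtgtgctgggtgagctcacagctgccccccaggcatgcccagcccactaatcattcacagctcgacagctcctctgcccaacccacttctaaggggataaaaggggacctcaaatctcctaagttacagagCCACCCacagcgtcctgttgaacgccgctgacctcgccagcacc
Krt13, chr11:100121517-100121816: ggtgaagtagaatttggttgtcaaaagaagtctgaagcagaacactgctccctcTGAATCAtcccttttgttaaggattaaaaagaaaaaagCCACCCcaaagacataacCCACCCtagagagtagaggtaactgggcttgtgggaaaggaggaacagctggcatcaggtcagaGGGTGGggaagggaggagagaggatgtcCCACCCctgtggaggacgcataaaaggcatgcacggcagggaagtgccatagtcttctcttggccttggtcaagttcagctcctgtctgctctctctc
Krt8, chr15:102004293-102004592: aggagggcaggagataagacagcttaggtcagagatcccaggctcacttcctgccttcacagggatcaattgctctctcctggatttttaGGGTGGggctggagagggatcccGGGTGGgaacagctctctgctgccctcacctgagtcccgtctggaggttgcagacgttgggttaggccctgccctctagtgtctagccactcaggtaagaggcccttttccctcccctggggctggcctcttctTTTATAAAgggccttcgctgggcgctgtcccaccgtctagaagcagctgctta

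Of the 48 keratins, 32 were matched to a promoter in the RefSeq table, with 33 promoters. TATAAA was present in 54.5% of these promoters and in 13.6% of all 32851 promoters of the same length. CCACCC was present in 45.5% against 31.5%, and TGANTCA in 6.06% against 7.81%. The 6.06% were 2 promoters of 1 gene, Krt13. The Krt12 promoter held TATAAA at position -29 from the start, whereas those of Krt5 and Krt13 held none of these exact letters in this window. Both held the letters ataaaa, which the search did not take. Krt8 had 2 overlapping matches, read on opposite strands, the first at position -3. Krt13 was the only 1 of the 4 with TGANTCA, at position -196, where the letters were TGAATCA. Krt13 is represented here by the first of its 2 promoters in the table. A match is a run of letters and not a measured binding site.

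The keratins held the 3 most variable genes of the whole data set. By the SD over the 18 arrays, Krt12 ranked 1 of 18194 genes with 3.22, Krt15 ranked 2 with 3.06 and Krt6b ranked 3 with 2.88. Krt5 followed at rank 10, Krt6a at 19, Krt4 at 22, Krt13 at 30, Krt19 at 42, Krt7 at 60 and Krt14 at 135. In all, 12 of the 48 lay at or above the 95th percentile of all genes, an SD of 0.46 log2 units, and 10 had an SD above 1. At the other end, 24 keratins lay below the median SD of all genes, 0.14. For Krt12, Krt15 and Krt5 the SD within groups was 3.21, 3.36 and 2.68, close to or above the SD over all 18 arrays, 3.22, 3.06 and 2.45. In some of the less variable keratins it was lower, as for Krt34 (0.10 against 0.14).

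**Figure D1:**
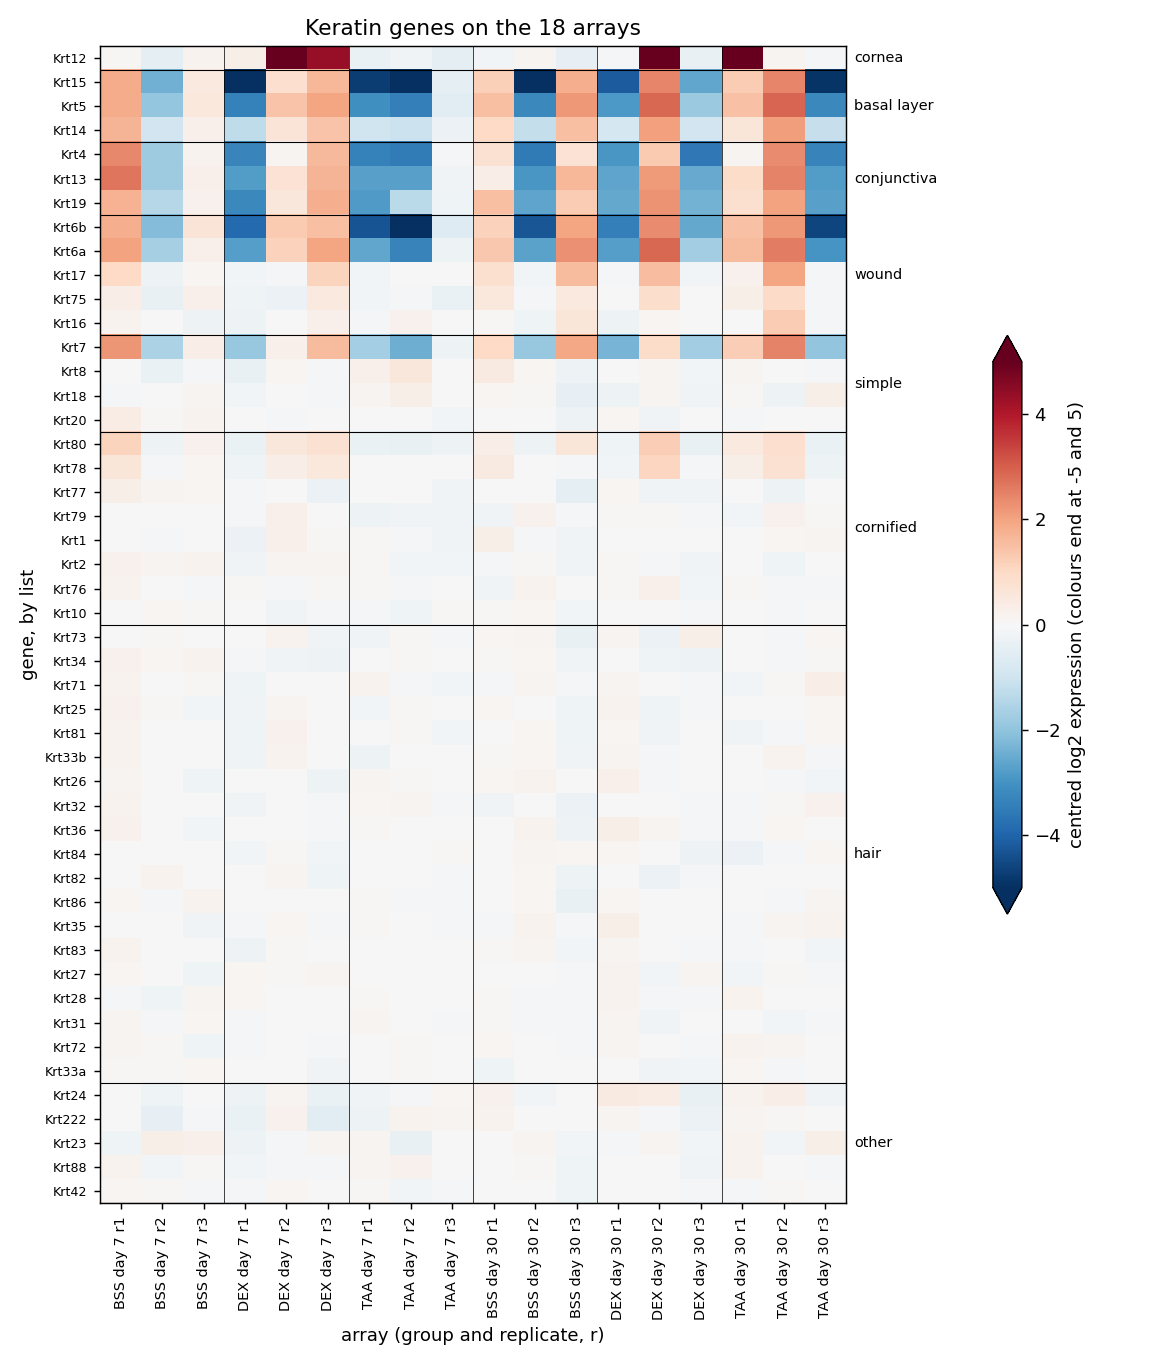
Centred log2 expression of the 48 keratin genes (rows, by list) on each of the 18 arrays (columns, by group and replicate), with colours ending at -5 and 5. Krt12 is high on 4 arrays only, the basal, conjunctival and some wound keratins go up and down together within every group, and the hair keratins stay near 0.

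Krt12, the corneal keratin, was either near its median or far above it. It read 0.05, -0.48 and 0.19 on the BSS arrays of day 7 and -0.15, 0.12 and -0.41 on those of day 30. With DEX it read 0.30, 6.82 and 4.34 at day 7 and -0.08, 9.20 and -0.38 at day 30. With TAA it read -0.34, -0.19 and -0.46 at day 7 and 7.99, 0.13 and -0.11 at day 30. Thus 4 of the 18 arrays were high, DEX day 7 replicates 2 and 3, DEX day 30 replicate 2 and TAA day 30 replicate 1, while the other 14 lay between -0.48 and 0.30. None of the 6 BSS arrays and no TAA array of day 7 was among the 4. Most of the steroid arrays were not among them, and the cause of the high values was not tested. Both Krt12 probe sets gave this pattern, with a correlation of 0.99 between them.

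Krt5, the type II keratin of the basal layer and a partner of Krt12 in the cornea, divided the arrays differently. It read 1.87, -1.92 and 0.52 in the BSS group of day 7, -3.36, 1.42 and 1.96 with DEX at day 7, and -3.06, -3.40 and -0.52 with TAA at day 7. At day 30 it read 1.51, -3.24 and 2.17 with BSS, -2.88, 2.88 and -1.87 with DEX, and 1.45, 2.90 and -3.22 with TAA. For Krt5, 8 arrays were above 1 and 8 were below -1, and each of the 6 groups held at least 1 of the low arrays. The 5 groups other than TAA at day 7 also held at least 1 of the high arrays.

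Krt13, the type I keratin of the conjunctiva, was low on the same 8 arrays as Krt5. Its values were 2.68, -1.76 and 0.26 with BSS, -2.78, 0.71 and 1.70 with DEX, and -2.71, -2.73 and -0.18 with TAA at day 7. At day 30 they were 0.34, -2.90 and 1.66 with BSS, -2.65, 2.12 and -2.54 with DEX, and 0.90, 2.46 and -2.80 with TAA. Each group again spanned several log2 units, and only TAA at day 7 had no array above 0.

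Krt15, a type I keratin of basal cells including those of the limbus, had the deepest lows beside Krt6b. At day 7 it read 1.84, -2.41 and 0.50 with BSS, -5.31, 0.83 and 1.65 with DEX, and -4.73, -5.33 and -0.50 with TAA. At day 30 it read 1.18, -5.04 and 1.82 with BSS, -4.17, 2.44 and -2.61 with DEX, and 1.25, 2.42 and -4.90 with TAA. The lowest Krt6b value, -6.0, was on the same array as the lowest Krt15 value, TAA day 7 replicate 2. Krt6b is a keratin of the hair follicle and of wounded or fast-dividing epithelium.

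Over the 18 arrays, 9 of the 47 other keratins had a correlation with Krt5 above 0.9: Krt6a (0.997), Krt15 (0.99), Krt6b (0.98), Krt13 (0.98), Krt14 (0.97), Krt19 (0.97), Krt7 (0.96), Krt4 (0.96) and Krt80 (0.93). Krt17, Krt78 and Krt75 lay above 0.7, and 32 lay between -0.5 and 0.5. These correlations are descriptions, since all values share the arrays and one normalization. Outside the keratins, 118 genes had a correlation with Krt5 above 0.9. Krt7 and Krt19 form filaments of glandular and transitional epithelia and Krt19 is also a conjunctival keratin; both went with the stratified pairs and not with Krt8 and Krt18.

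Of the 7 keratin pairs examined, 6 gave a correlation over all 18 arrays, tested by permutation with p adjusted over the pairs. Krt5 and Krt14 had Pearson's r = 0.97 (p = 1e-05, adjusted 3.5e-05) and Spearman's rho = 0.97 (p = 1e-05, adjusted 3.5e-05), and r was 0.97 without the 2 most distant arrays and 0.97 within groups. Krt4 and Krt13 had r = 0.98 and rho = 0.92 with the same p-values, the smallest that 100000 resamples can give, with r = 0.98 without the 2 most distant arrays and 0.99 within groups. Both pairs thus kept together after the group means were taken out.

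The pairs of wound keratins were looser, although Krt6a and Krt6b themselves followed Krt5 closely (0.997 and 0.98). Krt17 is the mean of 1 nearly flat probe set and 1 that varied (SDs 0.12 and 1.39). Krt6b and Krt17 had r = 0.73 (permutation p = 0.00051, adjusted 0.00119) and rho = 0.78 (p = 0.00027, adjusted 0.00063), with r = 0.76 without the 2 most distant arrays and 0.74 within groups. Krt6a and Krt16 had r = 0.57 (permutation p = 0.00399, adjusted 0.00698) and rho = 0.65 (p = 0.00467, adjusted 0.00817), with 0.64 and 0.63 in turn. Krt16, which pairs with Krt6a in injured epithelium, exceeded 1 on a single array, TAA day 30 replicate 2 (1.25), and Krt17 was highest there too (1.97).

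Krt8 and Krt18 had r = 0.56 (permutation p = 0.0159, adjusted 0.0222) and rho = 0.50 (p = 0.0374, adjusted 0.0524), and r was 0.43 without the 2 most distant arrays and 0.59 within groups. The rank correlation of the pair thus did not pass the adjustment. Krt1 and Krt10, the pair of the cornifying layers of skin, had r = -0.08 (permutation p = 0.745, adjusted 0.869) and rho = -0.15 (p = 0.555, adjusted 0.648). For them r was -0.23 without the 2 most distant arrays and -0.15 within groups.

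Krt5 and Krt12 were given no pooled correlation, because Krt12 split the arrays by a gap of 4.04 log2 units. On the 14 arrays below the gap, where Krt12 varied little by the way they were chosen, r was 0.04 (permutation p = 0.892, adjusted 0.892) and rho was -0.08 (p = 0.787, adjusted 0.787), with r = 0.04 without the 2 most distant arrays and -0.02 within the groups that kept at least 2 arrays (13 arrays). The 4 arrays above it were too few. All 4 arrays with high Krt12 had Krt5 above 1 and Krt13 above 0, at 0.71, 1.70, 2.12 and 0.90. The reverse did not hold: Krt12 was 0.05 on BSS day 7 replicate 1, -0.41 on BSS day 30 replicate 3 and 0.13 on TAA day 30 replicate 2, where Krt13 read 2.68, 1.66 and 2.46.

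**Figure D2:**
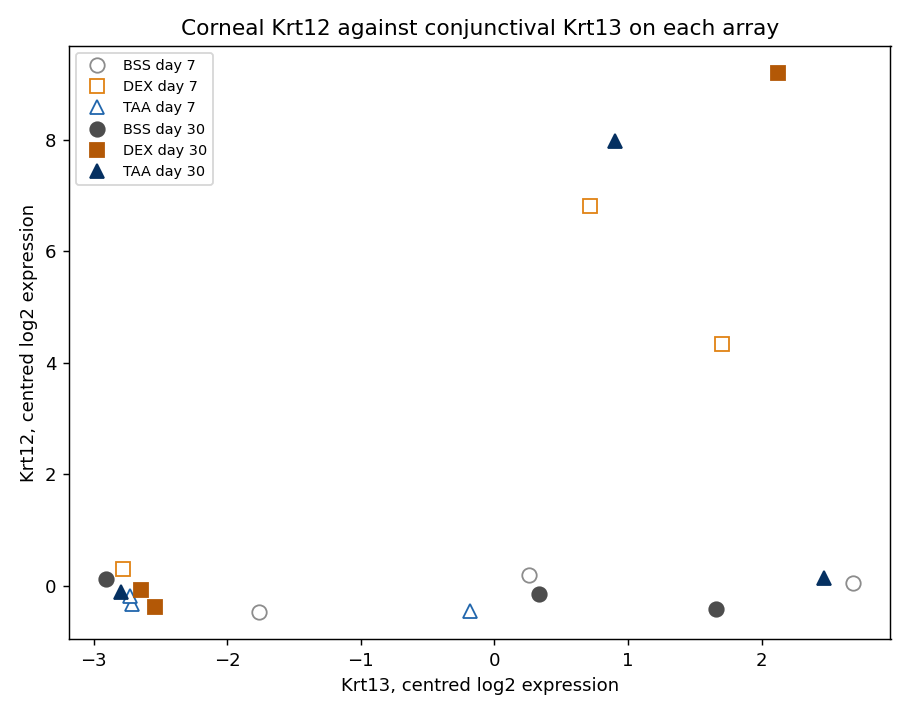
Krt12 against Krt13 on the 18 arrays (both as centred log2 expression, symbols by group). High Krt12, from 4.34 to 9.20, was seen only on 4 arrays with Krt13 above 0, and 3 arrays with Krt13 of 1.66 or more had Krt12 near 0.

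Outside the keratins, the 10 genes whose values were most like Krt12 over the 18 arrays were Lypd2 (correlation 0.93), Psca (0.86), Dsg1a (0.85), Dusp28, Bcam, Mgll, Palmd, Pard3, Slurp1 and Cited4 (0.79). For some of them an array with Krt12 near 0 read higher than 1 or more of the 4 arrays with high Krt12, as for Psca, which read 0.98 on BSS day 7 replicate 1 and 0.62 on DEX day 7 replicate 3. Lypd2, a small membrane-anchored protein of the Ly6 family, read 5.86 on DEX day 30 replicate 2, 3.55 on TAA day 30 replicate 1, 2.19 on DEX day 7 replicate 2 and 0.56 on DEX day 7 replicate 3, against -0.48 to 0.34 on the other 14. Dsg1a, a cadherin of desmosomes in stratified epithelium, read 3.27, 1.30, 1.08 and 1.18 on those arrays against -0.54 to 0.96.

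Of 7 corneal epithelial genes other than keratins, none was called in any comparison. At most 0.429% of all genes were called in a comparison, so this does not set the list apart. The mean of the 7 genes was highest on DEX day 30 replicate 2 (1.63). On the other 3 arrays with high Krt12 that mean was 0.79, 0.56 and 0.64, but it was also 0.84 on TAA day 30 replicate 2, 0.67 on BSS day 7 replicate 1 and 0.62 on BSS day 30 replicate 3, where Krt12 was near 0. Aldh3a1, an abundant soluble enzyme of the corneal epithelium, read 2.58, 1.69, 1.17 and 1.26 on the 4 arrays and reached 1.78 on TAA day 30 replicate 2. The mean of 7 corneal stroma genes such as Kera ranged from -0.48 to 0.27 and was between 0.13 and 0.17 on the 4 arrays. The part that the amount of corneal tissue on an array had in the Krt12 values was not tested.

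The comparison of DEX with BSS at day 7 asked what differed 1 week after a single dexamethasone injection, and no keratin was called in it. Krt12 had the largest positive difference of all 18194 genes, a log2 fold change of 3.90 (SE 2.38, 95% interval -1.17 to 8.98, n = 3 and 3), yet its adjusted p by limma was 1.0. Of the 10 keratins with an SD above 1, 9 had a negative value, down to -0.92 for Krt15, and the remaining 1 was Krt12; these 10 were picked after their values were seen and carry no test. Krt5 differed by -0.15 (SE 1.98) and Krt13 by -0.51 (SE 1.73), each far inside its spread. The 38 others ranged from -0.34 to 0.15.

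By limma at an adjusted p under 0.05, 0 of 48 keratins were called in that comparison, as were 0% of all genes. At an unadjusted p of 0.05 or less there were 3 keratins, Krt20, Krt34 and Krt77, against 1.83% of all genes, and at the study's thresholds of that p and a fold change of 1.5 there were 0 against 0.0989%. The 3 DEX arrays did not overlap the 3 BSS arrays for 5 keratins, Krt12, Krt20, Krt33a, Krt34 and Krt77, against 9.23% of all genes. The test named in the methods, run on the same values, also gave 0 keratins in each of the 7 comparisons, both after adjustment and at the study's thresholds. Krt34, a hair keratin, had the smallest p (log2 fold change -0.34, SE 0.09, adjusted p by limma 1.0).

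Whether Krt12 met the study's thresholds depended on single arrays, and with every array kept it met them under quantile normalization and with only the groups compared in the fit. Without DEX day 7 replicate 1, the array of the group with low Krt12, or without DEX day 30 replicate 2, the count of keratins at those thresholds went from 0 to 1, the gene being Krt12 with a log2 fold change of 5.66 and 3.90 in turn. Without DEX day 7 replicate 2 its log2 fold change was 2.40. The Krt5 difference ranged from -1.19 without BSS day 7 replicate 2 to 1.53 without DEX day 7 replicate 1.

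In the comparison of TAA with BSS at day 7, 6 stratified keratins were among the 10 most negative genes, again without a call, while 13 of the 48 keratins had positive values and the median over the 48 was -0.09, against 9068 of 18194 genes with positive values. Krt6b had the most negative log2 fold change of 18194 genes, -3.76 (SE 2.26, 95% interval -8.59 to 1.07), and Krt15 the next, -3.49 (SE 2.49). Krt4 ranked 5 from the bottom (-2.58), Krt5 ranked 6 (-2.48, SE 1.98), Krt13 ranked 9 (-2.27) and Krt6a ranked 10 (-2.26). All 10 keratins with an SD above 1 had negative values, and the adjusted p by limma was 0.99 for each of the 6 named here. The Krt12 difference was -0.25 (SE 2.38), as it was near its median in both groups. For Krt5, 2 of the 3 TAA arrays, replicates 1 and 2, lay below every BSS array of day 7, and replicate 3 lay between them. Leaving out 1 array at a time moved the Krt6b difference between -2.58, without TAA replicate 2, and -5.26, without TAA replicate 3.

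In that comparison 0 of 48 keratins were called at an adjusted p under 0.05 by limma, against 0.0055% of all genes (1 gene). At an unadjusted p of 0.05 or less there were 3, Krt2, Krt8 and Krt20, against 4.23%, and 0 met the study's thresholds against 0.583%. The groups did not overlap for 7 keratins, Krt2, Krt8, Krt20, Krt34, Krt77, Krt79 and Krt80, against 11.4% of all genes. Krt80, a keratin of differentiating epithelial cells, differed by -0.69 (SE 0.44) and was between -0.37 and -0.27 on the TAA arrays and between -0.27 and 1.12 on the BSS arrays, so the nearest values of the groups were equal after rounding.

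Krt8 and Krt18 did not share the low values of the stratified keratins with TAA. Krt8 read -0.04, -0.34 and -0.04 with BSS, -0.39, 0.12 and -0.11 with DEX, and 0.25, 0.55 and 0.00 with TAA at day 7. At day 30 it read 0.44, 0.11 and -0.25 with BSS, 0.01, 0.14 and -0.15 with DEX, and 0.12, 0.01 and -0.06 with TAA. The 3 TAA arrays of day 7 lay above the 3 BSS arrays of that day, by 0.41 (SE 0.18, 95% interval 0.03 to 0.79, adjusted p by limma 0.99), and Krt8 was 0.40 above DEX (SE 0.18, adjusted p by limma 1.0).

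Krt18, the type I partner of Krt8, stayed between -0.40 and 0.30 on all 18 arrays and differed by 0.10 (SE 0.15) between TAA and BSS at day 7. Krt20, a keratin of gut lining and Merkel cells, was higher in BSS at day 7 (0.37, 0.07 and 0.16) than with either steroid, by log2 fold changes of -0.23 for DEX (SE 0.09) and -0.24 for TAA (SE 0.09). Neither passed the adjustment, and both use the same 3 BSS arrays. The genes outside the keratins most like Krt8 were Myo5b, a motor of apical membrane traffic (correlation 0.90), Ap1g1 (0.83), Atp1b1, Fam107b, Rangap1, Nars2, Irak2, 4930592I03Rik, Polr3k and Knop1 (0.74).

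**Figure D3:**
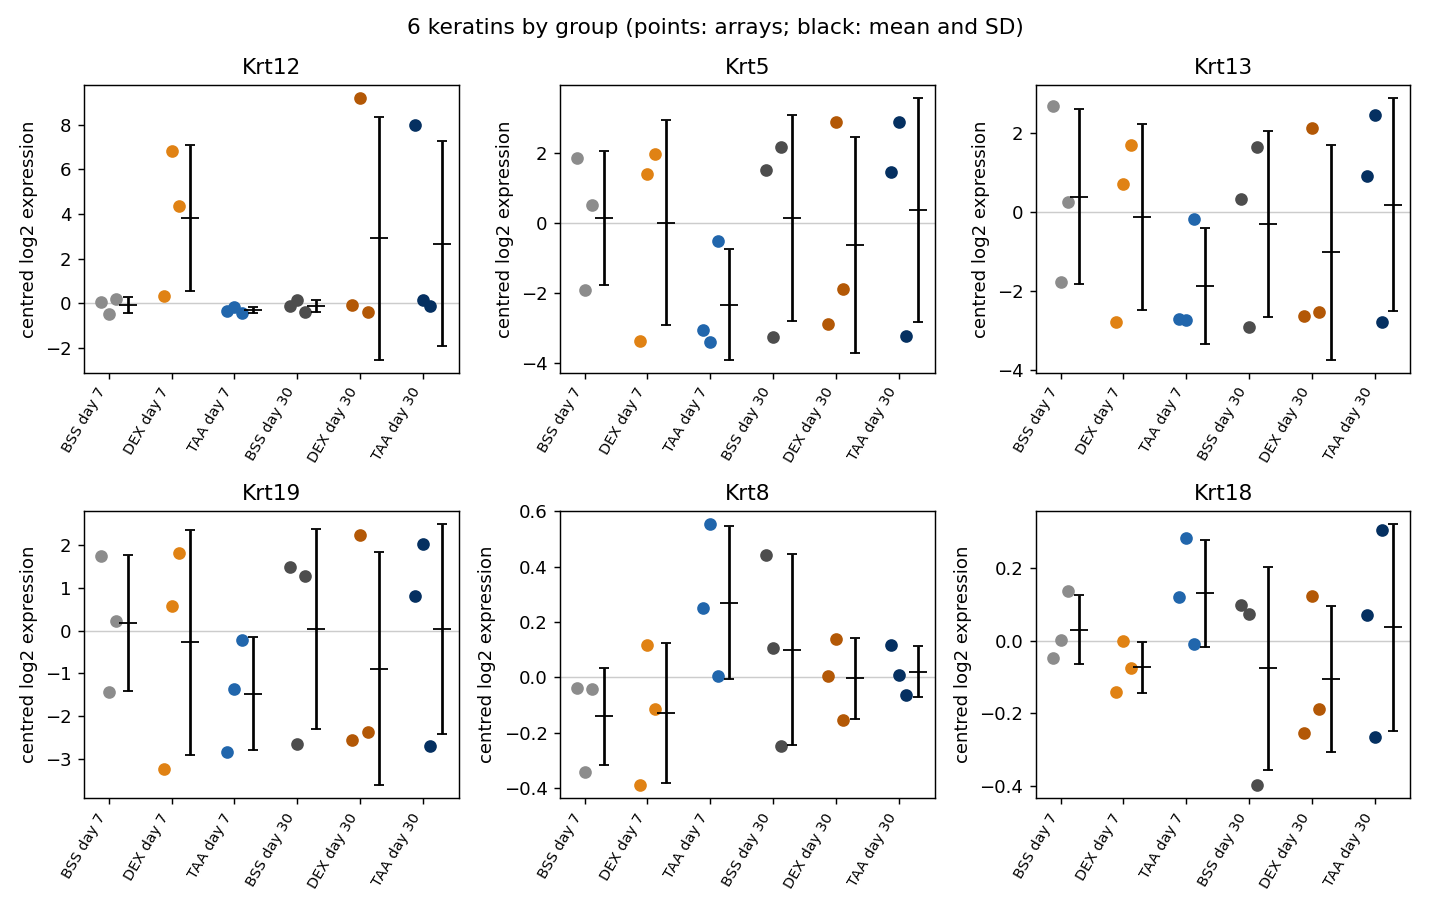
Centred log2 expression of 6 keratins by group, each point 1 array and the black marks the mean and SD of 3 arrays, with a separate vertical scale for each gene. For Krt5, Krt13 and Krt19 the SD of a group exceeds the distance between most group means, and Krt8 and Krt18 stay within -0.40 and 0.55.

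At day 30, the keratins of neither steroid group stood apart from BSS. With DEX, Krt12 again had the largest positive log2 fold change of all genes, 3.06 (SE 2.38, adjusted p by limma 0.94), and it came to -0.09 without replicate 2. Of the 10 most variable keratins, 9 were negative, down to -1.40 for Krt7 (SE 1.36). For this comparison 0 of 48 keratins were called at an adjusted p under 0.05 by limma against 0% of all genes, 0 had an unadjusted p of 0.05 or less against 4.7%, 0 met the study's thresholds against 0.44%, and for 0 did the groups not overlap, against 4.24%.

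With TAA at day 30, Krt12 had the largest positive log2 fold change of all genes as well, 2.82 (SE 2.38, adjusted p by limma 1.0), and it came to 0.16 without replicate 1. All 10 of the most variable keratins had positive values, from 0.01 for Krt19 to 2.82, with 0.23 for Krt5 (SE 1.98) and 0.49 for Krt13 (SE 1.73). By limma 0 of 48 were called against 0% of all genes, 1 had an unadjusted p of 0.05 or less (Krt32, a hair keratin, 0.22) against 2.57%, and 0 met the study's thresholds against 0.176%. The groups did not overlap for 1, Krt26 (-0.17), against 5.57% of all genes.

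**Figure D4:**
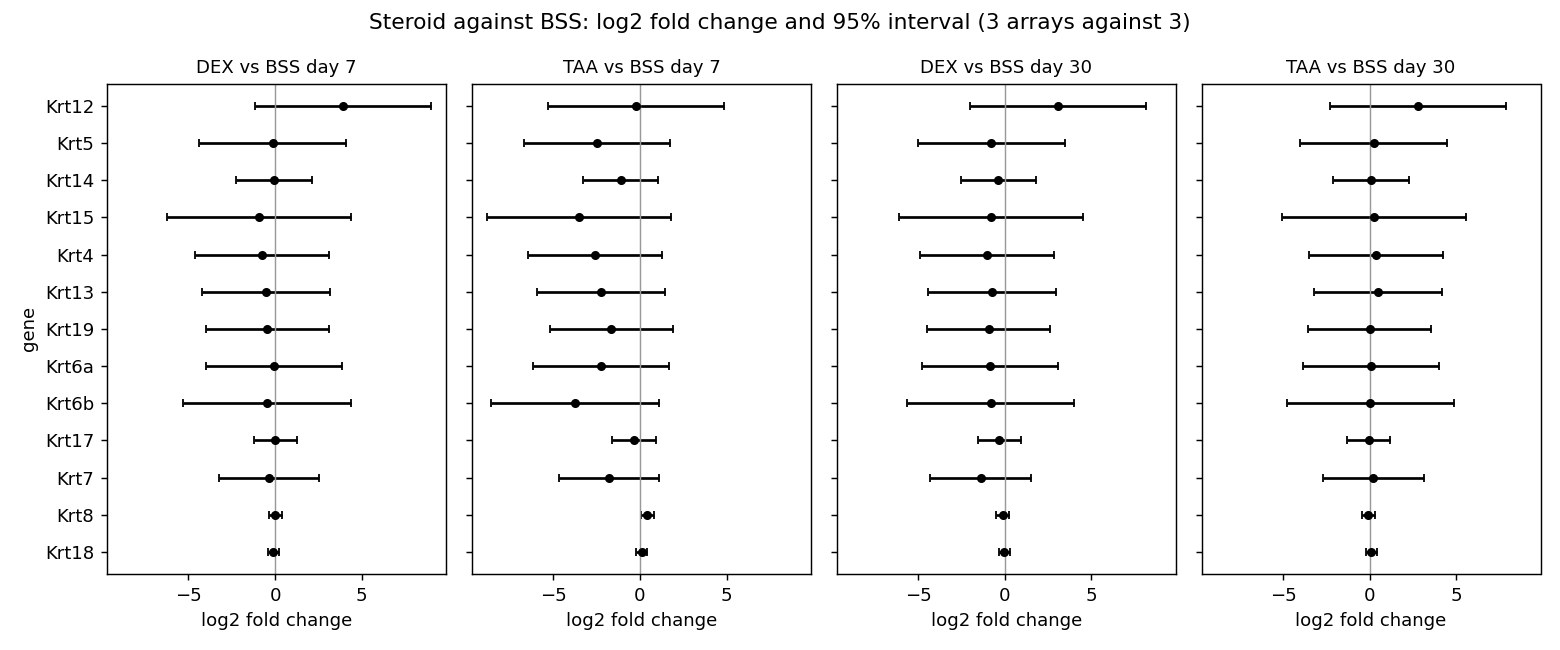
Log2 fold change of steroid over BSS with its 95% interval for 13 keratins (rows) in the 4 comparisons of 3 arrays against 3 (panels). Intervals of Krt12, Krt5, Krt15 and Krt6b span several log2 units and include 0, and only that of Krt8 with TAA at day 7 lies wholly above 0, from 0.03 to 0.79, before adjustment.

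TAA against DEX, the comparison of the steroids themselves, had its most negative difference of all genes at day 7 in Krt12, -4.15 (SE 2.38, 95% interval -9.23 to 0.92), followed by Krt6b (-3.30) and Krt15 (-2.57) at ranks 2 and 3. The 3 TAA arrays lay below the 3 DEX arrays for Krt12, the lowest of which read 0.30 against a highest TAA value of -0.19. At this day 0 of 48 keratins were called by limma against 0% of all genes, 2 had an unadjusted p of 0.05 or less (Krt8 and Krt79) against 2.49%, and 0 met the study's thresholds against 0.346%. The groups did not overlap for 6 keratins, Krt12, Krt27, Krt34, Krt36, Krt79 and Krt88, against 10.8%. Leaving out DEX day 7 replicate 1 or DEX day 30 replicate 2 put Krt12 past the study's thresholds here too, a count of 1.

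At day 30 the same comparison gave positive values for 9 of the 10 most variable keratins, up to 1.62, and -0.24 for Krt12. It called 0 of 48 by limma against 0% of all genes, with 0 at an unadjusted p of 0.05 or less against 1.62%, 0 at the study's thresholds against 0.126% and 0 without overlap against 4.4%. Without TAA day 30 replicate 3, 1 keratin, Krt16, met the study's thresholds.

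The 9 arrays of day 30 were also compared with the 9 of day 7 over all treatments. By limma 0 of 48 keratins were called, while 0.429% of all genes were, 78 in number. At an unadjusted p of 0.05 or less there were 2, Krt2 (-0.13, SE 0.06) and Krt75, against 15.3% of all genes, 0 met the study's thresholds against 1.01%, and 0 had days that did not overlap against 0.225%. Krt5 differed by 0.69 (SE 1.15) and Krt12 by 0.68 (SE 1.37). An F-test over the 6 groups called 0 keratins against 0.0495% of all genes, with 1 keratin, Krt34, at an unadjusted p of 0.05 or less (adjusted p by limma 0.88) against 5.29%. An F-test of treatment within each day called 0 against 0%, again with Krt34 alone at an unadjusted p of 0.05 or less, against 1.73% of all genes.

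The steroid effects of the 2 days were set against each other in an interaction term of the same fit. For TAA, the effect on Krt6b was 3.81 log2 units higher at day 30 than at day 7 (SE 3.20, 95% interval -3.02 to 10.64), that on Krt15 was 3.76 higher (SE 3.52), and that on Krt5 was 2.71 higher (SE 2.81), each with an adjusted p by limma of 0.97. For DEX, the effect on Krt12 was -0.84 (SE 3.36). No keratin was called for either steroid by limma, as was 0% of all genes. At an unadjusted p of 0.05 or less there were 0 for DEX against 2.72% and 1 for TAA (Krt20, 0.30, SE 0.13) against 3.04%. The opposite signs of the stratified keratins with TAA at day 7 and at day 30 were not shown to differ.

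Most of the remaining keratins varied little. The 19 hair and hair-root keratins had SDs over the arrays from 0.09 to 0.17, none in the upper 5% of all genes. The 8 keratins of cornified epithelium had SDs from 0.09 to 0.56. Krt80 was highest and the only 1 of them in the upper 5%, and Krt78 was at 0.37. Krt1, Krt2, Krt10, Krt76, Krt77 and Krt79 kept within -0.49 and 0.28. Apart from Krt34, Krt32 and Krt26, named above, the largest differences from BSS among the hair and unclassed keratins were 0.20 for Krt222 and -0.20 for Krt23, both with TAA at day 7. As the deposited values hold no level, a gene at the background of the array and a gene at a steady level look alike here.

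Probe sets of 1 gene mostly told the same story. Of the 9 keratins with several probe sets, Krt4, Krt6a, Krt8, Krt12 and Krt13 had correlations of 0.97 or higher between them. Krt14 and Krt17 each held 1 nearly flat probe set, with an SD of 0.23 beside 2.06 for Krt14 and of 0.12 beside 1.39 for Krt17, so the gene means of both understate the variation of the other probe sets. Krt42 had a correlation of 0.26 between 2 flat probe sets.

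The genes that anchor keratin filaments were examined as lists drawn from general knowledge. In desmosomes, the cell-to-cell junctions to which keratins attach, 14 genes were measured and 0 were called by limma or met the study's thresholds in any of the 7 comparisons. Over all genes, at most 0.429% were called and at most 1.01% met those thresholds in a comparison, so a count of 0 in a list of this size, here and for the lists that follow, does not set it apart. Their mean was highest at 1.17 on DEX day 30 replicate 2, and its 8 lowest values, down to -0.67, fell on the 8 arrays where Krt5 was below -1. Pkp1, a desmosomal plaque protein of stratified epithelium, ranged from -1.14 to 2.16, against -0.64 to 0.69 for Dsp, the plakin that ties keratin to the plaque, and -0.30 to 0.54 for Jup, a plaque catenin that other cells use as well.

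Hemidesmosomes fix basal cells to the basement membrane, and 0 of the 8 genes measured were called or met the study's thresholds. Col17a1, the transmembrane collagen of hemidesmosomes, differed by -2.02 (SE 1.85) between TAA and BSS at day 7, while Itga6 and Itgb4, the integrin chains, differed by -0.20 (SE 0.15) and -0.16 (SE 0.23). All 8 genes had negative values there and all 8 had positive values with TAA at day 30, with medians of -0.22 and 0.16 on the log2 scale, against medians over all genes of -0.00037 and 0.012. The TAA and BSS arrays did not overlap for 1 of the 8 at day 7, against 11.4% of all genes, and for 0 at day 30, against 5.57%.

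Of the regulators of epithelial identity, 0 of 13 were called or met the study's thresholds. Trp63, the p53 family factor of basal cells, ranged from -0.51 to 0.80, Klf4 from -0.47 to 0.54 and Klf5 from -0.33 to 0.41. All 13 had negative values with TAA at day 7 (median -0.41), against 9126 of 18194 genes (median -0.00037). Their mean read -0.48, -0.51 and -0.10 on the TAA arrays of day 7 and 0.68, -0.36 and 0.11 on the BSS arrays. The 13 signs come from the same arrays and are not separate observations. Of the 13, 1 had an unadjusted p of 0.05 or less by limma, against 4.23% of all genes. This was Klf4 (-0.41, SE 0.19, adjusted p by limma 0.99). Among 16 genes of surface differentiation, Lypd3, a Ly6 family protein of suprabasal cells, ranged from -1.33 to 3.58, Sfn from -0.24 to 1.49 and Ly6d from -0.20 to 0.33, and 0 were called or met the study's thresholds.

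The junction genes of epithelia and the goblet and mucin genes of the conjunctiva gave the same counts, 0 of 9 and 0 of 10. Epcam, an adhesion protein of epithelia, ranged from -0.38 to 0.96, Cdh1 from -0.60 to 0.47 and Cldn1 from -0.38 to 0.55. Muc4, a membrane mucin of the ocular surface, ranged from -2.13 to 1.39, with its 8 lowest values on the 8 arrays where Krt5 was below -1. Muc5ac, the secreted mucin of goblet cells, was high on 1 array only, BSS day 30 replicate 3 (1.88), and otherwise lay between -0.31 and 0.22, and Muc16 stayed between -0.13 and 0.16.

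Genes of other tissues of the eye met the study's thresholds in some comparisons, and their part in the keratin values was not tested. With TAA at day 7, 4 of 10 lens genes and 4 of 8 skeletal muscle genes were lower than in BSS at the study's thresholds, as were 2 of 4 adipocyte genes and 1 of 7 corneal stroma genes, none of them called after adjustment, against 0.456% of all genes lower by that rule. The high array of the lens mean was BSS day 30 replicate 3 (3.12) and its low array TAA day 7 replicate 2 (-1.56), the array on which Krt6b, Krt15 and Krt5 were also lowest. Other arrays went the opposite way. The lens mean was 0.997 on DEX day 7 replicate 1, where Krt5 read -3.36. It was -0.63 on DEX day 7 replicate 2, where Krt5 read 1.42. The rod mean was highest on BSS day 30 replicate 1 (3.70), where Krt5 read 1.51. It was nearly as high on DEX day 30 replicate 3 (3.50), where Krt5 read -1.87.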

How the data were processed

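Total RNA of RPE/choroid from 18 mice (3 of the 4 animals per group, those with the highest RNA quality) was hybridised to 1-colour expression arrays; labels and methods disagree on the labelling kit. The authors imported the scanner files, applied RMA and set each probe set to the median of all arrays, and the deposited values are these log2 values for 45101 probe sets. The largest absolute median of a probe set was 5e-07, so no level, background flag or depth is held, and the 3 arrays per group limit the precision. Gene names came from the platform annotation: 34958 probe sets had 1 symbol, 932 had several and 9211 had none.

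Probe sets with 1 symbol were averaged per gene. limma 3.58.1 in R 4.3.3 was fitted to all 18 arrays at once, a mean for each of the 6 groups leaving 12 residual degrees of freedom, with two-sided tests and Benjamini-Hochberg adjustment over 18194 genes, and a call was an adjusted p under 0.05. The study's thresholds were a fold change of at least 1.5 together with p no higher than 0.05 before adjustment. The fit was also run on simulated data with independent normal noise for each gene, which leaves out the correlation between keratins. Pair correlations used 100000 permutations, two-sided. Keratins were named by list (corneal, basal, conjunctival, wound, simple, cornified); of the hair and other keratins, those with the largest changes; of each partner list, the first 3 genes. The members and lists were chosen with earlier results of these data known. The labels call the 3 samples of a group biological replicates. Replicate numbers did not pair the arrays. Alternatives covered normalization, probe set choice, gene filter, prior, weights, samples in the fit, the methods' tests, a replicate block and each array left out.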

Additional observations from a re-analysis of the deposited data

How the results depend on the processing

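The count of keratins called at an adjusted p under 0.05 was 0 in each of the 7 comparisons and in the F-test, and it stayed 0 under every alternative run, each left-out array included. The count at the study's thresholds was 0 in each comparison and became 1 for DEX against BSS at day 7 under quantile normalization and with only the groups compared in the fit (Krt12), and 0 to 1 over the left-out arrays. For TAA against BSS at day 7 it became 1 with array weights and with only the groups compared (Krt6b), and for TAA against BSS at day 30 it became 1 with array weights (Krt12). For TAA against DEX at day 7 it became 2 with array weights and with only the groups compared (Krt12 and Krt80), 1 under quantile normalization, and 0 to 1 over the left-out arrays. For TAA against DEX at day 30 it was 0 to 1 over the left-out arrays. The cause was not tested. With the replicate number as a block the counts stayed 0. The numbers did not pair the arrays: deviations of same-numbered arrays from their group means had correlations from -0.755 to 0.615, and 3 of 18 arrays matched an array of their own number best.

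Of the 168 log2 fold changes of listed keratins, none was called. Of 3024 values with an array left out, 226 had the opposite sign, as had 45 of 1498 values under other settings. Leaving out an array of a group outside a comparison cannot change its fold change, nor can a setting such as another prior. Many of these values were thus fixed in advance, and the shares understate how often signs turned. Of all these values, 2 and 1 in turn moved by the gene's SD within groups or more. That SD was 3.21 for Krt12, so its fall with DEX at day 30 from 3.06 to -0.09 without replicate 2 was not counted. A filter on weak probe sets was not run, since the values hold no level; the 80% of genes with the largest SD were used in its place. The groups of 3 arrays left intervals of several log2 units for the variable keratins.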
